A study of Mus musculus with 2 samples.

Results

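Myofibroblast-like cancer-associated fibroblasts were the cells of the fibroblast gate that held more matrix-remodelling than adventitial transcripts. They numbered 810 of the 15853 cells kept, from 21580 barcodes: 726 of 7820 in the wild type (WT) library and 84 of 8033 in the Myct1 knockout library. A cell was kept with at least 500 detected genes and at most 10% mitochondrial UMIs (unique molecular identifiers, each counting 1 captured transcript). The fibroblast gate required at least 30 UMIs of Col1a1, Col1a2 and Col3a1 together per 10000 UMIs. It allowed at most 4 of Krt8 and Krt18, at most 5 of Cdh5, Egfl7 and Emcn, and under 10 of Rgs5, Notch3, Kcnj8 and Abcc9. The members were chosen by measured counts: a member held more UMIs of Postn, Col12a1, Lrrc15 and Spon1 together than of Pi16, Dpt, Clec3b and Tnxb together, and the remaining gated cells are called other fibroblasts.

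Both libraries were 3' droplet single-cell RNA libraries of tumours from C57BL/6 mice, each made from the pooled tumours of 4 mice dissociated with collagenase, dispase and DNase. The WT mice carried no listed transgene, and the second genotype was Cdh5-cre Myct1 fl/fl, spelled Cdh-cre on the sample. Its Cre recombinase is driven from the Cdh5 promoter, which is active in endothelium, so fibroblasts are not the cells in which the driver is known to act. What tumour was grown, the age and sex of the mice, whether cells were sorted and which exon was floxed were not given in the labels, and these name the libraries endothelial although they held several cell classes.

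Myofibroblast-like cancer-associated fibroblasts are the matrix-producing, contractile fibroblasts of many tumours. In textbook accounts they arise from resident fibroblasts under TGF-beta and mechanical tension, and express alpha smooth muscle actin with periostin, fibril-associated collagens and the membrane protein Lrrc15. Adventitial fibroblasts marked by Pi16 and Dpt are a resident, progenitor-like fibroblast state found around vessels and in connective tissue, and inflammatory fibroblasts are a further state known for cytokine, chemokine and complement transcripts.

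The question for the knockout is how these fibroblasts differ in tumours of mice with an endothelial deletion of Myct1, a small membrane protein gene known for its endothelial expression. Myct1 stood at 238 CPM in gated endothelial cells of the WT library and 0.20 CPM in WT members, and was not listed in the knockout table, where every listed gene reached at least 4 UMIs in 1 barcode. CPM are the summed UMIs of a gene in a class per 1000000 UMIs of that class. Each genotype had 1 library, so no test was made: values carry exact 95% intervals for counting error only, a difference is between libraries, and library and genotype cannot be told apart.

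In WT, 9.28% of kept cells were members (8.65 to 9.95%), and in the knockout 1.05% were (0.835 to 1.29%). The fibroblast gate as a whole held 2724 WT and 116 knockout cells, so members made up 26.7% of WT fibroblasts (24.999 to 28.4%) and 72.4% of knockout fibroblasts (63.3 to 80.3%). The knockout library thus held fewer members, and a larger share of its few fibroblasts were members. Keratin positive cells were 46.0% of kept WT cells and 81.1% of kept knockout cells, and these shares of 1 dissociation each were not tested. The median depth was 13285.5 UMIs per WT member and 13287.5 per knockout member, with 3450.5 and 3131.5 detected genes. The members' sums held 9935249 and 1291255 UMIs, and the 32 other fibroblasts of the knockout held 271557.

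The difference between the 4 matrix and the 4 adventitial transcripts had a median of 131 UMIs in WT members (quartiles 51 and 242.25, highest 746). In knockout members its median was 85 UMIs (quartiles 21 and 202, highest 578). Few cells lay near the threshold: in WT 4, 5 and 6 cells had a difference of 1, 2 and 3 UMIs, and 11 non-members each had 0 and -1. The knockout held 0, 2 and 2 cells at the same steps and 7 at 0. No UMI of the 4 adventitial genes was found in 165 WT and 46 knockout members.

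**Figure D1:**
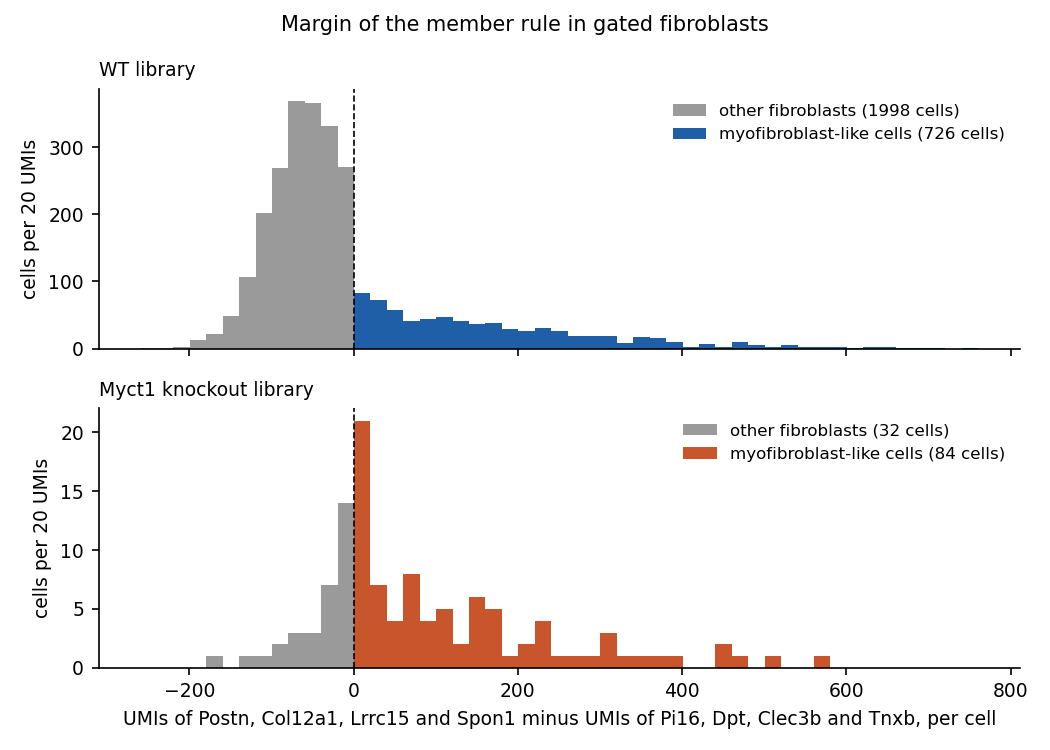
Number of gated fibroblasts (vertical axis, cells per 20 UMIs) by the difference between matrix and adventitial UMIs per cell (horizontal axis, UMIs), for the WT library above and the knockout library below, with members coloured and other fibroblasts grey. WT holds a large group of 1998 cells at or below 0 and 726 members spread to 746 UMIs, and the knockout holds 32 cells at or below 0 and 84 members.

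The label was checked against defining markers. Collagen I, the main fibrillar collagen, was scarce in some members: 9 WT and 17 knockout members had under 30 UMIs of Col1a1 and Col1a2 together per 10000. All 17 such knockout members lacked a Col1a2 UMI and none exceeded 4.63 per 10000, whereas the lowest of the other 67 stood at 44.7. These 17 cells passed the gate through Col3a1 (4051 CPM). They held Postn at 620 CPM, no UMI of Lrrc15 or Spon1, and 1827 CPM of Lgals7, an epithelial galectin. They go against the label, so the comparison of the libraries was also made for the 717 WT and 67 knockout members with collagen I, and those values are given for the main results and for lists whose counts differed.

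Defining markers of other classes were low in members, which the gate fixed in part. It capped the mural markers Rgs5, Notch3, Kcnj8 and Abcc9, the endothelial markers Cdh5, Egfl7 and Emcn, and the keratins Krt8 and Krt18. The mural and keratin positive classes set beside members were gated as high on the same genes. The smooth muscle and macrophage markers were not in the gate. The 7 mural markers summed to 96.4 CPM in WT and 83.6 CPM in knockout members, against 10993 and 4991 CPM in gated mural cells. The smooth muscle markers Myh11, Cnn1, Actg2 and Lmod1 summed to 51.1 and 57.3 CPM, and of these the myosin Myh11 stood at 2.92 and 4.65 CPM. The 6 endothelial markers summed to 10.6 and 16.3 CPM, and macrophage markers to 14.3 and 5.4 CPM. The 5 keratin positive markers summed to 33.2 CPM in WT and 93.7 CPM in knockout members, against 1507 and 1750 CPM in the keratin positive gate. They were thus higher in knockout members, and their part in the differences below was not tested beyond the values given beside them. No member's barcode was a member in both libraries, and 1 knockout member's barcode also occurred in the WT library.

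The marker genes were described first within each library. Since the rule used these cells, levels against other fibroblasts are a description. Postn, which encodes the matricellular protein periostin, stood at 9505 CPM in WT members and 1754 CPM in WT other fibroblasts. In the knockout it stood at 6279 and 770 CPM (log2 ratios of 2.44 and 3.03). Col12a1, a fibril-associated collagen, stood at 2612.5 CPM in WT members against 162 CPM, and Lrrc15 at 422 against 11.3 CPM. Spon1, which encodes the secreted protein F-spondin, stood at 758 against 60.6 CPM. These genes are part of the rule.

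Acta2 and Crabp1 were not in the rule. Acta2, alpha smooth muscle actin, stood at 809 CPM in WT members and 3.94 CPM in WT other fibroblasts, and at 884 and 11.05 CPM in the knockout. Crabp1, a cytosolic retinoic acid binding protein, stood at 679 and 9.40 CPM in WT, and at 2315 and 18.4 CPM in the knockout. Both therefore set members apart from other fibroblasts in each library. Acta2 was higher still in mural cells (3254 and 5301 CPM), whereas Crabp1 stood at 38.3 CPM in WT mural cells and had no UMI in knockout mural cells. After thinning each cell to 3000 UMIs, which left 697 WT and 83 knockout members, an Acta2 UMI was present in 42.9% of WT members (39.2 to 46.7%) and 37.3% of knockout members (27.0 to 48.7%). Unthinned shares were 57.4% and 45.2%. The thinned share was 1.20% and 0.755% in keratin positive cells, a class that should lack it.

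**Figure D2:**
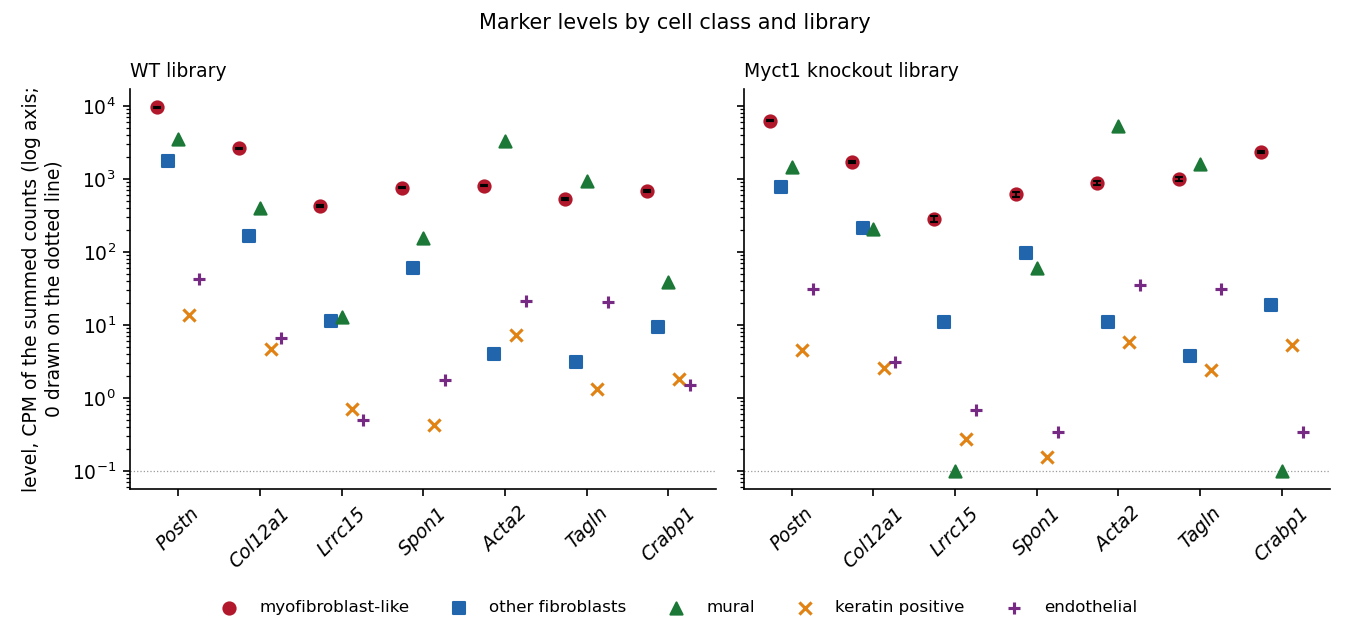
Level of 7 marker genes (vertical axis, CPM of the summed counts on a log axis) in 5 cell classes of the WT library (left) and the knockout library (right), with exact 95% counting intervals on the myofibroblast-like points and levels of 0 on the dotted line. Postn, Col12a1, Lrrc15, Spon1 and Crabp1 are highest in myofibroblast-like cells of both libraries, and Acta2 and Tagln are highest in mural cells.

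Over all 5248 genes with a mean of at least 25 CPM, 324 (6.17%) were at least 2-fold higher and 407 (7.76%) at least 2-fold lower in WT members than in WT other fibroblasts, around a median log2 ratio of 0.08. Outside the rule, the genes furthest above other fibroblasts were contractile, matrix and secreted-factor genes. Tagln, the actin-binding protein transgelin, stood at 529.5 against 3.11 CPM. Tnc, which encodes tenascin C, stood at 2822.5 against 36.3 CPM, and Spp1, which encodes osteopontin, at 3895 against 73.6 CPM. Col7a1, the collagen of anchoring fibrils, stood at 356 against 6.41 CPM. Stra6, the receptor for retinol binding protein, stood at 119 against 0.53 CPM. Inhba, the activin A subunit, stood at 108 against 2.59 CPM. Further genes were the carboxypeptidase family member Cpxm2, the collagenase Mmp13 and the leukocyte tetraspanin Cd53 (149 against 2.29 CPM). The pan-leukocyte gene Ptprc stood at 0.91 CPM in WT members.

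Genes furthest below were secreted immune factors and surface proteins of other fibroblasts. Cxcl13, a B cell chemokine, stood at 3.12 CPM in WT members and 239 CPM in other fibroblasts. Scara5, a ferritin receptor, stood at 10.5 against 211 CPM, and Lbp, the lipopolysaccharide binding protein, at 76.6 against 871 CPM. Cd55, which limits complement at the cell surface, stood at 45.9 against 442 CPM. Pcsk6, Ggt5, Clu and Aldh1a3 completed the 8 lowest, with log2 ratios between -3.81 and -3.27.

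In the WT library, the contractile list lay furthest above other fibroblasts among the lists that were not markers. In the knockout it had 8 of 18 genes at least 2-fold higher and 0 lower (median 0.91), and the collagens, with 10 of 19 higher and 1 lower (median 1.03), lay further above. Over all 5022 genes compared within the knockout, 324 were at least 2-fold higher and 642 lower (median -0.09). In WT, of 19 contractile and focal adhesion genes, 16 were at least 2-fold higher in WT members than in other fibroblasts and 0 lower (median log2 ratio 1.72). The tropomyosin Tpm2 stood at 229 against 9.11 CPM and the myosin light chain Myl9 at 89.3 against 11.99 CPM. The actin-binding calponin Cnn2 stood at 116 against 24.98 CPM. Promoter windows of RefSeq (GRCm38.p6, 250 bases before to 50 after the start) were searched on both strands for exact matches to the CArG box bound by serum response factor (no mismatch in its 10 bases), for GGAATG, the motif of TEAD factors, and for TGANTCA, the motif of AP-1. Entries were found for 19 contractile genes, and the windows of 5 contractile or marker genes are shown because each holds 1 of the motifs. The windows of Tpm2 and Postn held none. Capitals mark the motif found.
Acta2, chr19:34255324-34255623, minus strand: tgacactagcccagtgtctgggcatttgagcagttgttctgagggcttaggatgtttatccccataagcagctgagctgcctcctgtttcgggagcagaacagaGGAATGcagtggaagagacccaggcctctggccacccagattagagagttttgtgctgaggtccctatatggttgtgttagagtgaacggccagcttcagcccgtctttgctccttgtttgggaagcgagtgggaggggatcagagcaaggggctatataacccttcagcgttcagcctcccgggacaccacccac
Myl9, chr2:156775214-156775513, plus strand: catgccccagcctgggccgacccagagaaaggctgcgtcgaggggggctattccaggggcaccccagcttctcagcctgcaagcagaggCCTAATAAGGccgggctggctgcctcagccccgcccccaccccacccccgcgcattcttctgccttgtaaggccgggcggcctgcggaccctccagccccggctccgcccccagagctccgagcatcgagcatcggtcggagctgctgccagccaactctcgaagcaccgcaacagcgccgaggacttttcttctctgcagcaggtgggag
Cnn2, chr10:79988350-79988649, plus strand: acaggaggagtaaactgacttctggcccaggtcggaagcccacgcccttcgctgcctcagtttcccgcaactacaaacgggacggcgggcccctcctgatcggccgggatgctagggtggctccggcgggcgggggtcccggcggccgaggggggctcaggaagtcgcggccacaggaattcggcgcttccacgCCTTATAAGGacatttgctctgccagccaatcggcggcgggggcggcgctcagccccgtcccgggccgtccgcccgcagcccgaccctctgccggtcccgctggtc
Lrrc15, chr16:30283205-30283504, minus strand: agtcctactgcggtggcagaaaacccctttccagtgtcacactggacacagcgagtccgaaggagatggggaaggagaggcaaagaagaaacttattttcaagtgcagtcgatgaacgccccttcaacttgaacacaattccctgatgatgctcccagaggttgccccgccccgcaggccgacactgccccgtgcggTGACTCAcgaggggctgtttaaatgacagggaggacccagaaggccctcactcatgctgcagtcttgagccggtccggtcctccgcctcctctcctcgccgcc
Crabp1, chr9:54764498-54764797, plus strand: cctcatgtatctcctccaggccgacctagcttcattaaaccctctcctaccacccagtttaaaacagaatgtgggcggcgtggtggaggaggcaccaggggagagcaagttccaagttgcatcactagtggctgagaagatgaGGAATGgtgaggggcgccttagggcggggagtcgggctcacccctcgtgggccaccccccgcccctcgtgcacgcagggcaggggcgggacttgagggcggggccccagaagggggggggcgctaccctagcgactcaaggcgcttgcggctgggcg

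An exact CArG box lay in 3 of the 19 contractile genes (Cnn2, Myl9 and Vcl) and in 1.63% of all 32851 windows. Inexact matches, such as ccctatatgg in the Acta2 window, were not counted. GGAATG lay in 8 of the 19, with Acta2 among them, as well as in Crabp1 and in 14.7% of all windows. TGANTCA lay in 4 of the 19, in Lrrc15 and in 7.81% of all windows. These matches are letters in a window and were not tested as sites. Tagln, Actg2, Col12a1 and Spon1 had no entry.

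Matrix lists had smaller medians than the contractile list against other fibroblasts in WT. Among 19 collagens, 6 were at least 2-fold higher and 1 lower in WT members (median log2 ratio 0.80). Col8a1, a short-chain network collagen, stood at 433 against 17.5 CPM, and the fibrillar collagens Col1a1 (13622 against 7467 CPM) and Col3a1 (17424 against 19359 CPM) were less than 2-fold apart. Col14a1, a fibril-associated collagen, was the lower one, at 456 against 1901 CPM. Among 24 genes of collagen folding and crosslinking, 7 were higher and 1 lower. Lox, the lysyl oxidase that crosslinks collagen, stood at 2252 against 1019 CPM. Among 21 matricellular proteins, glycoproteins and proteoglycans, 10 were higher and 4 lower, with Wisp1 at 148 against 4.53 CPM and the growth factor Ctgf at 413 against 44.4 CPM. The 16 elastic fibre genes had 3 higher and 4 lower, and Efemp1, a fibulin of elastic fibres, stood at 180 against 1165 CPM.

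In the WT library, TGF-beta ligands and receptors differed in how many genes were higher in members. Of 12 ligands and activators, 6 were at least 2-fold higher and 0 lower, around a median of 0.98. Tgfb1 stood at 159 against 17.1 CPM and Tgfb3 at 75.6 against 12.4 CPM. Of 17 receptors and Smads, 1 was higher and 2 lower (median -0.01). Of 13 target and feedback genes, 6 were higher and 0 lower, with the feedback inhibitor Pmepa1 at 1066 against 200.2 CPM. Wnt genes had 4 of 10 higher and 1 lower in WT, and 3 of 8 higher and 3 lower in the knockout, and the ligand Wnt5a stood at 159 against 11.2 CPM in WT. Hypoxia and glycolysis genes had 6 of 17 higher and 1 lower in WT (median 0.73), and 0 of 20 higher and 6 lower in the knockout (median -0.29). Over all 5022 genes of the knockout comparison, 324 were higher and 642 lower. Proliferation genes had 4 of 10 higher in WT and 2 of 11 in the knockout, and 0 lower in either.

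Many inflammatory and most adventitial genes were at least 2-fold lower in members. Of 23 inflammatory genes, 3 were higher and 10 lower in WT (median -0.66). In the knockout 1 of 19 was higher and 13 lower, beside 324 higher and 642 lower of all 5022 genes. The levels that follow are those of WT. The cytokine Il6 stood at 183 against 751 CPM, and the complement component C3 at 1501 against 8595 CPM. The chemokine Cxcl12 stood at 539 against 1803 CPM. Of 20 adventitial genes, which include the 4 of the rule, 0 were higher and 16 lower in WT (median -2.68). In WT, interferon response genes had 1 of 16 higher and 6 lower, and immediate early genes 0 of 19 higher and 7 lower.

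Members varied widely among themselves. Per 10000 UMIs, Postn had a median of 80.7 in WT members (quartiles 44.6 and 132) and 38.8 in knockout members (quartiles 10.9 and 86.8). Acta2 was concentrated: its median was 1.04 in WT members and the highest cell held 150.2, so that 73 cells, the top 10%, carried 65.4% of all Acta2 UMIs. In the knockout the top 8 cells carried 65.7%. Crabp1 was as concentrated in WT, where 73 cells carried 68.5% of UMIs, and less so in the knockout, where 8 cells carried 49.6%. A Crabp1 UMI was found in 53.0% of WT (49.3 to 56.7%) and 65.5% of knockout members (54.3 to 75.5%).

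Acta2 and Crabp1 marked overlapping but separately varying cells. After thinning, 127 of 697 WT members held UMIs of both (18.2%, 15.4 to 21.3%), 172 of Acta2 alone (24.7%), 142 of Crabp1 alone (20.4%) and 256 of neither (36.7%). The product of the separate shares was 16.6%. In the knockout 19 of 83 held both (22.9%, 14.4 to 33.4%), against a product of 21.2%. Both counts lay near the product of shares.

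Contractile genes varied together with Acta2 across cells, as a description over 697 WT cells that share 1 library. Spearman's rho with Acta2 was 0.65 for Tagln, 0.51 for Tpm2 and 0.50 for Myl9, and the median over 19 contractile genes was 0.31. A Tagln UMI was found in 66.6% of the 299 WT cells with Acta2 (60.9 to 71.9%) and 15.8% of the 398 without (12.4 to 19.8%). In the knockout, over 83 cells, rho was 0.78 for Tagln, with shares of 83.9% and 17.3%. Lrrc15, the TGF-beta-linked surface marker, had a rho with Acta2 of 0.42 in WT and 0.55 in the knockout. The 83 knockout cells include members without collagen I, and no correlation was made without them.

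Adventitial transcripts ran the other way in WT, and no such trend was seen over the fewer genes compared in the knockout. Their median rho with Acta2 was -0.19 over 19 genes in WT (8 at -0.2 or below) and 0.01 over 10 genes in the knockout (0 at -0.2 or below). The knockout held few of these transcripts, with a Pi16 UMI in 4 of 83 thinned members. Its median of 0.01 therefore does not show that the trend was absent. A C3 UMI was found in 19.4% of the 31 knockout cells with Acta2 (7.45 to 37.5%) and 11.5% of the 52 without (4.35 to 23.4%). In WT, rho with Acta2 was -0.43 for the proteoglycan Dcn, a pan-fibroblast marker, and -0.41 for the complement gene C3. With Pi16 in WT, rho was 0.61 for Col14a1, 0.59 for Tnxb, 0.55 for C3 and -0.42 for Tnc. A C3 UMI was found in 198 of the 220 WT members with Pi16 (exact interval 85.3 to 93.6%) and in 46.1% of the 477 without (41.6 to 50.7%). WT members thus ran from Pi16 and C3 positive cells, nearer the other fibroblasts, to contractile cells with Acta2 and Tagln. The rule's own genes shape this axis.

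Crabp1 did not vary with contractile genes in WT, where its median rho with them was -0.01 and none of 20 reached 0.2. With 19 adventitial genes its median rho was -0.16, and that of Acta2 was -0.19. Its highest values were with collagen VI, at 0.37 for Col6a2 and 0.35 for Col6a1, with Spon1 (0.33) and with the growth factor Igf1 (0.33). In the knockout its highest values were with the gelatinase Mmp2 (0.63), Lum (0.58), Postn (0.57) and Dcn (0.56), over 83 cells. These cells include members without collagen I, in which the 6 pan-fibroblast markers summed to 4203 CPM, against 37093 CPM in those with it. The median rho of these markers with Crabp1 was 0.45 in the knockout and 0.24 in WT. The part of cells lacking collagen I in the knockout correlations was not tested.

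**Figure D3:**
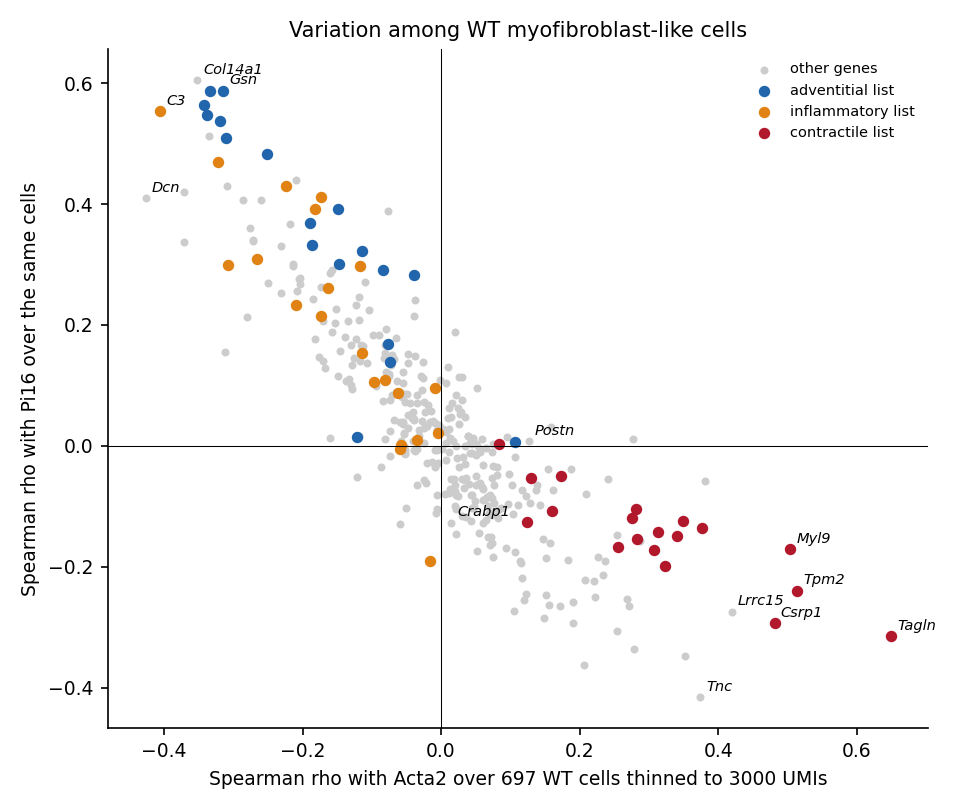
Each point is a gene, placed by its Spearman rho with Acta2 (horizontal axis) and with Pi16 (vertical axis) over 697 WT members thinned to 3000 UMIs. Contractile genes lie to the right, with Tagln at 0.65, and adventitial and inflammatory genes lie mostly at the upper left, with C3 at -0.41 on the horizontal and 0.55 on the vertical axis.

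Knockout and WT members were then compared over 5065 genes with a mean of at least 25 CPM. Of these, 114 (2.25%) were at least 2-fold higher and 294 (5.8%) at least 2-fold lower in the knockout, around a median of -0.15 on the log2 scale. In members with collagen I the counts were 85 of 5003 (1.7%) and 266 (5.32%). With TMM scaling the median moved to 0.0026 and the split to 197 higher and 218 lower. Among the 1717 genes with at least 100 CPM in 1 library, 41 were 2-fold higher and 138 lower. Of these, 9 of the higher (Areg, Ccnd1, Col18a1, Hbegf, Hmga2, Hspb1, S100a4, Sec11c and Tm4sf1) and 6 of the lower (Cd34, Ctla2a, Dlc1, Flt1, Ly6c1 and Mmp13) were over 3 times higher in keratin positive, endothelial or mural cells and were set apart.

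Crabp1 was the marker with the largest ratio in favour of the knockout, at 2315 CPM (2233 to 2399) against 679 CPM in WT (663 to 696). The log2 ratio was 1.77 (1.71 to 1.83), and 1.997 with collagen I. It dropped below 2-fold, at 0.95, between members without adventitial UMIs and, at 0.80, relative to the ratio in other fibroblasts. The value of 0.80 rests on few UMIs, as a Crabp1 UMI was found in 2 of 29 thinned other fibroblasts of the knockout. Relative to keratin positive cells, where Crabp1 stood at 1.81 and 5.32 CPM, the log2 ratio was 0.21. The thinned share of cells with a Crabp1 UMI was 38.6% in WT (35.0 to 42.3%) and 56.6% in the knockout (45.3 to 67.5%), against 0.704% and 1.27% in keratin positive cells. Knockout members thus held more Crabp1, both per cell sum and in the share of cells.

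Rorb and Thbs4 were also higher in knockout members. Rorb, a nuclear receptor gene, stood at 122 CPM in knockout members (104 to 143) and 11.5 CPM in WT members (9.46 to 13.8), a log2 ratio of 3.41 that remained at 3.33 with collagen I. Thinned, a Rorb UMI was found in 14.5% of knockout members (7.70 to 23.9%), 4.07% of knockout keratin positive cells, 3.01% of WT members and 2.26% of WT keratin positive cells. In other fibroblasts the share was 8.11% in WT (6.91 to 9.44%) and 6.90% of 29 cells in the knockout (0.846 to 22.8%). Unthinned, the shares were 39.3% of knockout and 10.5% of WT members. Of the Rorb UMIs in knockout members, 63.9% lay in 8 of 84 cells. Thbs4, a thrombospondin of tendon and muscle matrix, stood at 108 against 27.3 CPM (log2 ratio 1.99, 2.18 with collagen I). Of its knockout UMIs, 97.1% lay in 8 of 84 cells, so this value rests on few cells, and relative to other fibroblasts the ratio turned to -1.09.

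Other genes higher in the knockout were also expressed by other classes. Lgals7 stood at 440.0 against 43.6 CPM in members and at 1299 and 931 CPM in keratin positive cells, and its log2 ratio of 3.34 was 2.105 with collagen I. Aqp1, a water channel, stood at 205 against 26.6 CPM (log2 ratio 2.95, 2.17 with collagen I), and at 1400 CPM in WT endothelial cells. Ank, a pyrophosphate transporter, stood at 164 against 37.4 CPM (427 and 430 CPM in WT and knockout keratin positive cells). The transcription factor Trps1, at 111 against 26.7 CPM, dropped from a log2 ratio of 2.05 to 0.78 with collagen I. Relative to other fibroblasts the ratios of Lgals7, Aqp1, Ank and Trps1 turned below 0, from -0.85 to -0.045. The 32 other fibroblasts of the knockout were not limited to cells with collagen I. Their 5 keratin positive markers summed to 140 CPM, against 20.2 CPM in WT other fibroblasts. Class II antigen presentation genes had 4 of 4 at least 2-fold higher than in WT other fibroblasts. Over all 5058 genes, 331 were higher and 223 lower. The part of these traits in the ratios was not tested. Mtap, Fdps, Rpl6, Cacybp and Timm8b, genes of general metabolism, ribosomes and mitochondria, completed the 12 with log2 ratios of 1.26 to 1.84.

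The genes furthest below WT were adventitial and complement genes. Pi16 stood at 20.9 CPM in knockout members (13.8 to 30.4) and 404 CPM in WT members (392 to 417), a log2 ratio of -4.27 (-4.88 to -3.73). It is a gene of the rule, which caps it within members of either library. C3 stood at 176 CPM (154 to 200.2) against 1501 CPM (1477 to 1525), a log2 ratio of -3.09 (-3.29 to -2.90) and -2.85 with collagen I. A C3 UMI was found in 14.5% of thinned knockout members (7.70 to 23.9%) and 60.0% of WT members (56.2 to 63.6%), against 0.173% and 6.16% of keratin positive cells. Unthinned, the members' shares were 32.1% and 73.4%. The acute-phase inhibitor Serpina3n stood at 51.9 against 592 CPM, the lipocalin Apod at 11.6 against 189.7 CPM and the complement component C4b at 46.5 against 284 CPM. With collagen I their log2 ratios were -3.27, -3.78 and -2.37.

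Further genes of this group were Tnxb, another gene of the rule, the carbonic anhydrase Car4, the proteoglycan Ogn, the adhesion gene Chl1, the actin-severing Gsn, the protease Adamts15 and Yam1, with log2 ratios between -3.70 and -2.59. In keratin positive cells, Pi16 stood at 14.3 CPM in WT and 0.18 CPM in the knockout, and C3 at 22.02 and 2.25 CPM. These levels differed between the libraries in the same direction as the members' levels, and their part in the result was not tested. In other fibroblasts C3 stood at 8595 CPM in WT and 5192 CPM in the 32 knockout cells, and Serpina3n at 1352 and 1381 CPM. Relative to keratin positive cells the ratios of Pi16, C3, Serpina3n, Apod, Tnxb, Adamts15 and C4b, and those of Il6 and Col14a1, turned above 0 (0.20 to 2.83).

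**Figure D4:**
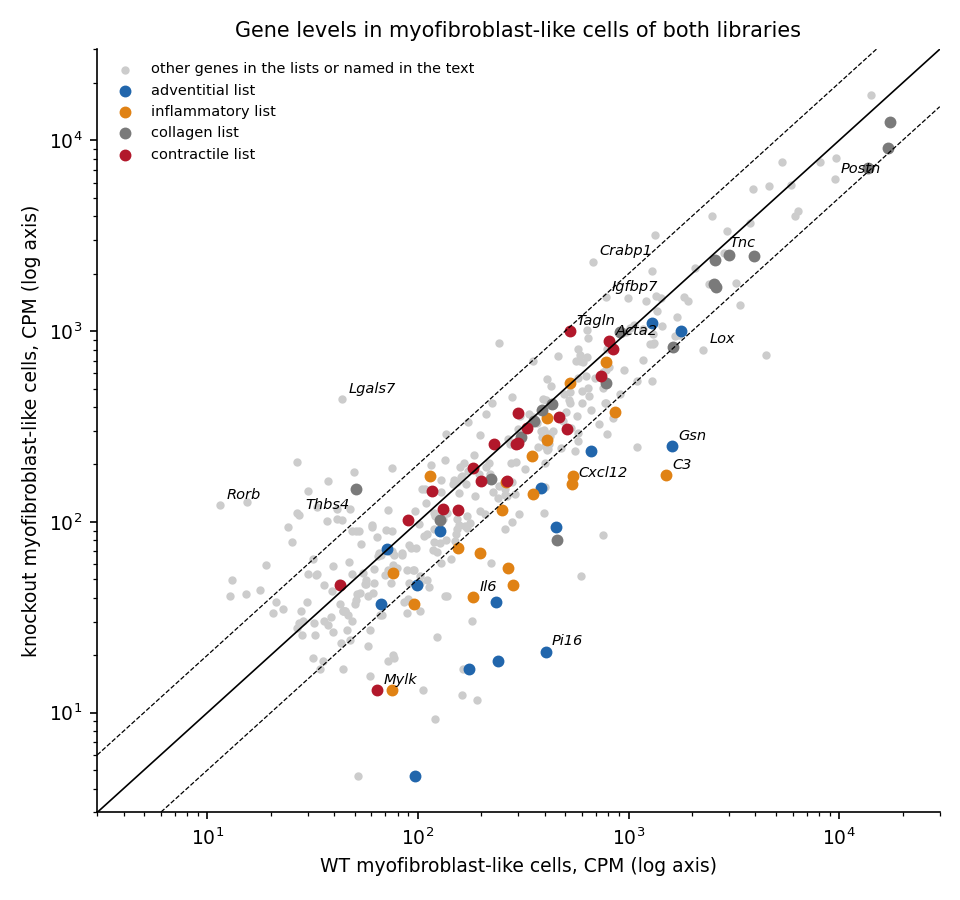
Level of each listed or named gene in knockout members (vertical axis, CPM) against WT members (horizontal axis, CPM), both on log axes, with lines of equality and of 2-fold difference. Crabp1, Rorb and Lgals7 lie above the upper line, Pi16 and C3 lie far below the lower one, and Acta2 lies next to equality.

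Few contractile genes were 2-fold apart between the libraries. Acta2 was at 884 CPM in knockout members (833 to 936) and 809 CPM in WT members (791 to 826), a log2 ratio of 0.13 (0.04 to 0.22). That ratio was 0.37 with collagen I, -0.73 between members without adventitial UMIs and -1.36 relative to other fibroblasts. Members without adventitial UMIs were not limited to cells with collagen I. An Acta2 UMI was found in 1 of 29 thinned other fibroblasts of the knockout, so the value of -1.36 rests on few UMIs. Tagln stood at 996 CPM (942 to 1052) against 529.5 CPM (515 to 544), a log2 ratio of 0.91, which passed 2-fold with collagen I at 1.16 and with TMM at 1.06, and was 0.27 between members without adventitial UMIs. Of 20 contractile genes, 0 were at least 2-fold higher and 1 lower. The list's median of -0.13 was 0.03 with collagen I, 0.02 with TMM, -0.64 between members without adventitial UMIs and -0.48 relative to other fibroblasts. The lower gene was Mylk, myosin light chain kinase, at 13.2 against 64.1 CPM, which stood at 1133 CPM in WT mural cells. The nonmuscle myosin Myh9 (308 against 509 CPM) and the crosslinker Actn1 (164 against 266 CPM) were less than 2-fold apart.

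Collagen I stood lower in knockout members by less than 2-fold. Its genes and Col3a1 set the fibroblast gate, and members with collagen I were selected on Col1a1 and Col1a2. Selection thus shaped these levels in both libraries. Col1a1 stood at 7125 against 13622 CPM (log2 ratio -0.93, -0.97 to -0.90) and at -0.70 with collagen I. The ratio passed 2-fold at -1.05 between members without adventitial UMIs, and turned to 2.60 relative to keratin positive cells, where Col1a1 stood at 18.5 CPM in WT and 1.60 CPM in the knockout. The latter value subtracts the log2 ratio of these low levels, so it does not describe members alone. Col1a2 stood at 9117 against 16998 CPM, and Col3a1 at 12446 against 17424 CPM. Over 19 collagens, 1 was at least 2-fold higher and 1 lower (median -0.40, 0.03 relative to other fibroblasts and 0.25 relative to keratin positive cells). The higher one was Col18a1, which was set apart above. Col15a1, Col7a1 and Col8a1 were within 0.13 of equality on the log2 scale. Col14a1 was the lower one at 80.5 against 456 CPM (log2 ratio -2.50). Of the other markers, Postn had a log2 ratio of -0.60 (-0.63 to -0.57), Col12a1 of -0.61, Lrrc15 of -0.59 (-0.75 to -0.43) and Spon1 of -0.31 (-0.42 to -0.20). With collagen I these were -0.38, -0.37, -0.35 and -0.07. Postn, Col12a1, Lrrc15 and Spon1 are the matrix genes of the rule, so selection shaped their levels in both libraries as well. Between members without adventitial UMIs, Postn (-1.49) and Lrrc15 (-1.26) passed 2-fold. These members were not limited to cells with collagen I, and the part of cells lacking it in these values was not tested. Relative to other fibroblasts Col12a1 passed 2-fold (-1.01) and Postn turned to 0.59. Relative to keratin positive cells, where the 6 markers together summed to 28.3 CPM in WT and 18.7 CPM in the knockout, the ratios turned to 0.96 for Postn, 0.21 for Col12a1, 0.77 for Lrrc15 and 1.14 for Spon1.

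Of 23 genes of collagen folding and crosslinking, 0 were higher and 4 lower (median -0.69, and -0.52 with collagen I). Lox stood at 798 against 2252 CPM, a log2 ratio of -1.50 (-1.59 to -1.41) and -1.25 with collagen I. In other fibroblasts its log2 ratio was 0.06. Its relative Loxl3 stood at 152 against 401 CPM, the collagen chaperone Fkbp10 at 139 against 289 CPM and the procollagen enhancer Pcolce2 at 20.1 against 76.5 CPM.

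Among 23 matricellular and proteoglycan genes, 2 were higher and 5 lower (median -0.51, and 0.46 relative to keratin positive cells). The higher were Thbs4 and Tgfbi, a TGF-beta induced matrix protein (93.7 against 24.1 CPM), whose ratio was under 2-fold with collagen I. The lower included Cyr61 (287 against 792 CPM) and Wisp2 (24.8 against 124 CPM), of the CCN family, and the basement membrane protein Nid1 (266 against 578 CPM). Tnc stood at 2569 against 2822.5 CPM, a log2 ratio of -0.14 that turned to 0.11 with collagen I, 0.01 with TMM and 0.87 relative to keratin positive cells, and was -3.14 relative to other fibroblasts (291 CPM in knockout and 36.3 CPM in WT). Of 16 elastic fibre genes, 0 were higher and 3 lower, namely Efemp1, Fbln1 and Fbn2.

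TGF-beta pathway genes differed little at the ligand. Tgfb1 stood at 194 against 159 CPM, Tgfb3 at 89.1 against 75.6 CPM and Inhba at 148 against 108 CPM. Of 12 ligands and activators, 0 were higher and 2 lower, Inhbb and the follistatin-like Fstl1 (1363 against 3371 CPM). Of 14 receptors and Smads, 0 were higher and 3 lower, which were the receptors Tgfbr2 (326 against 722 CPM), Tgfbr3 and Acvrl1. With collagen I, Tgfbr2 was under 2-fold at -0.98. Of 14 targets and feedback genes, 1 was higher (Tgfbi) and 1 lower (the Wnt regulator Dact1). Pmepa1 stood at 1075 against 1066 CPM.

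Of 21 matrix proteases and inhibitors, 0 were higher and 5 lower (median -0.68, and -0.56 with collagen I). In other fibroblasts the median was -0.71, with 1 of 19 higher and 4 lower. The stromelysin Mmp3 stood at 247 against 1099 CPM, with a UMI in 23.8% of knockout (15.2 to 34.3%) and 53.0% of WT members (49.3 to 56.7%). Mmp10 stood at 4.65 against 52.0 CPM and the aggrecanase Adamts5 at 61.2 against 222 CPM. The inhibitor Timp1 stood at 3359 against 2931 CPM.

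Growth factor genes went both ways. Of 12 PDGF, FGF and VEGF family genes, 1 was higher and 2 lower: the ligand Pdgfa at 78.2 against 25.3 CPM (186 and 268 CPM in WT and knockout keratin positive cells), the placental growth factor Pgf at 15.5 against 59.1 CPM and Angptl4 at 41.0 against 134 CPM. The receptor Pdgfrb stood at 438 against 393 CPM. Of 5 IGF binding proteins none passed 2-fold, and with collagen I 2 did: Igfbp7 at a log2 ratio of 1.20 (1513 against 778 CPM in all members) and Igfbp5 at 1.15 (419.7 against 224 CPM). Of 11 Wnt genes 0 were higher and 6 lower (median -1.01, and 0.30 relative to keratin positive cells), and with collagen I 1 and 3 of 12. The lower included the ligand Wnt2 (18.6 against 72.4 CPM), the secreted modulator Sfrp2 (111 against 396 CPM) and the receptor Fzd1 (110.0 against 303 CPM), whereas Wnt5a stood at 173 against 159 CPM. Besides Crabp1, the retinoid list held Crabp2 as higher (44.1 against 17.7 CPM, and 171 CPM in knockout keratin positive cells) and Rarres2 and Dhrs3 as lower, and with collagen I it had 1 of 8 higher.

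Many inflammatory genes were lower in knockout members. Of 21, 13 were at least 2-fold lower and 0 higher (median -1.20), and with collagen I 11 were lower (median -1.07). Il6 stood at 40.3 against 183 CPM, a log2 ratio of -2.18 (-2.61 to -1.78) and -1.94 with collagen I. The alarmin Il33 stood at 57.3 against 268 CPM, the chemokine Ccl2 at 174 against 547 CPM and the hyaluronan synthase Has1 at 68.9 against 196 CPM. Cxcl12 stood at 159 against 539 CPM, and its log2 ratio of -1.76 turned to 0.49 between members without adventitial UMIs. Between those 165 WT and 46 knockout members, which were not limited to cells with collagen I, the list median was 0.078, and C3 stood at -2.09. The eosinophil chemokine Ccl11 (537 against 529 CPM) and Cxcl14 (688 against 779 CPM) were at like levels.

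Adventitial genes had 0 of 15 higher and 10 lower (median -1.49, -1.25 with collagen I, and -0.04 between members without adventitial UMIs). The 10 lower include Pi16, Dpt, Clec3b and Tnxb, which the rule caps in members. Counts and medians without these genes were not made. Dpt stood at 94.5 against 454 CPM and Clec3b at 4.65 against 96.9 CPM, both genes of the rule. Outside it, the surface gene Ly6a stood at 151 against 385 CPM, and the microfibril gene Mfap5 at 1103 against 1291 CPM. Leaving out cells with adventitial UMIs removes genes of the rule that are also in this list, so its median there is fixed in part by that choice.

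**Figure D5:**
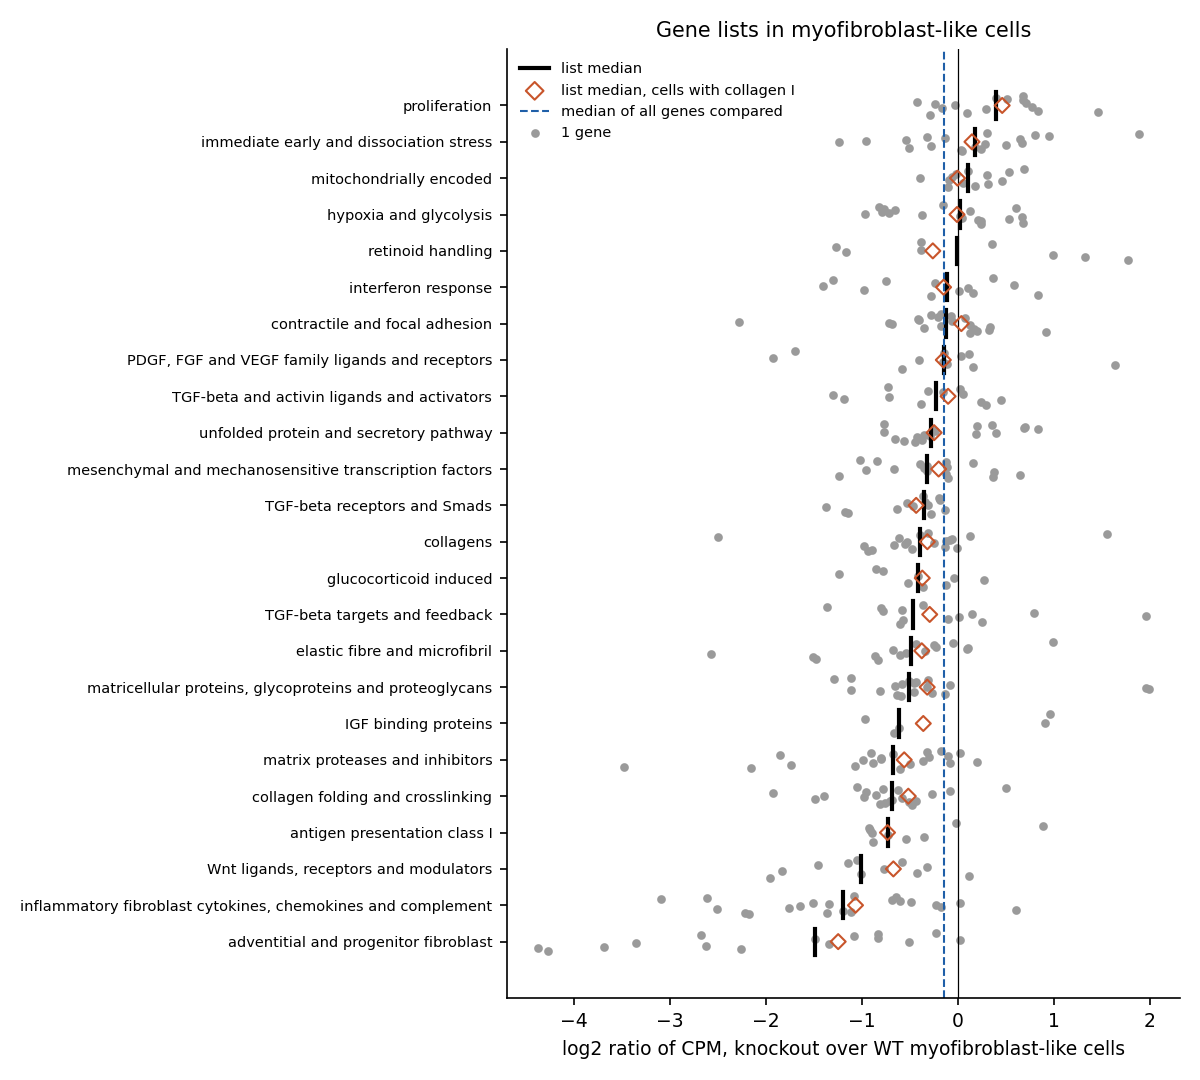
Log2 ratio of CPM, knockout over WT members (horizontal axis), for the genes of 24 lists, with each list's median for all members (bars) and for members with collagen I (diamonds) and the median of all genes (dashed line). Adventitial and inflammatory lists lie furthest to the left, at medians of -1.49 and -1.20, and the contractile list at -0.13 lies next to the median of all genes. The adventitial list includes Pi16, Dpt, Clec3b and Tnxb, genes of the rule.

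The remaining lists held few genes past 2-fold. Of 18 mesenchymal transcription factors 0 were higher and 2 lower, Prrx1 (235 against 558 CPM) and Osr2. The 9 class I antigen presentation genes had none in either direction (median -0.73), 2 of 12 interferon genes were lower, and so was 1 of 9 glucocorticoid induced genes. Hypoxia and glycolysis genes (19), the unfolded protein list (18) and the mitochondrially encoded genes (13) had none in either direction. With collagen I, 1 class I gene was lower, 3 interferon genes were lower and 1 of the unfolded protein list was higher. Among the lists above, with collagen I, 1 contractile and 1 elastic fibre gene were higher, 3 folding and crosslinking genes were lower, 1 matricellular gene was higher and 4 lower, and 0 TGF-beta targets were higher. In the same cells 4 proteases and 9 adventitial genes were lower, 2 of 13 growth factor genes were higher and 2 lower, and 2 of 17 proliferation genes were higher. Of 15 proliferation genes, Ccnb1 was higher (41.8 against 15.2 CPM), while Mki67 stood at 11.6 against 26.3 CPM. Among 19 immediate early and stress genes, the small heat shock gene Hspb1 was higher and the phosphatase Dusp1 lower, and Fos stood at 2134 against 2076 CPM. RNA quality measures were close, with a median mitochondrial share of 3.03% in knockout and 2.64% in WT members and Malat1 at 17212 and 14175 CPM.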

How the data were processed

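The authors deposited 1 table of whole UMI counts per library, genes against cell barcodes, with no normalisation. Per the submitters' processing notes it was made with Cell Ranger 2.1.1 and the genome build mm10. The total entries of each table were dropped, which left 10880 WT barcodes with 10503 gene symbols and 10700 knockout barcodes with 9663 (9127 shared). A gene missing from 1 table counted as 0 in the gates and levels of that library, and was left out of comparisons between libraries. Median depth was 8725.5 and 12921 UMIs per barcode, and 218 barcode sequences occurred in both libraries. A listed gene reached at least 4 UMIs in 1 barcode of its table.

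Counts were summed per class and library and given as CPM. Genes with a mean of at least 25 CPM over both sums were compared, and at least 2-fold was called. Log2 ratios carry exact conditional binomial intervals, levels exact Poisson intervals and shares of cells exact Clopper-Pearson intervals, which cover counting error only. Correlations used cells thinned to 3000 UMIs and genes found in at least 5% of them.

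Doublets were kept. A nearest-neighbour doublet score above 0.3 was found in 1.69% of WT cells (12 members) and 0.286% of knockout cells (0 members), too few to take the scoring as working. The 12 highest and 8 lowest genes against other fibroblasts, and the 12 highest and 12 lowest between libraries, were named by the interval bound nearest 0 among genes with at least 100 CPM in 1 sum. Predicted symbols, genes of the rule in the first comparison and, in the second, genes over 3 times higher in another class of the library where they were higher were left out. From gene lists, up to 6 genes with the largest ratios and genes described by role were named. Some named genes are not reported here. The members and the 36 lists were chosen with earlier results of these data known.

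Alternatives were other gates, doublets left out, thinned cells, equal weight per cell, TMM scaling, no filter on low genes, and ratios relative to other fibroblasts, keratin positive cells or genes of like transcript length (found for 96.2% of genes). Members with collagen I and members without adventitial UMIs were added after the data had been seen. The latter were not limited to cells with collagen I. The scripts were tested on simulated data. Computations ran in Python 3.11.15 with pandas 2.3.3, numpy 2.4.6, scanpy 1.11.5, scipy 1.17.1 and matplotlib 3.10.9.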

Additional observations from a re-analysis of the deposited data

Results flagged for a closer look

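Genes listed in the WT table alone are in no comparison of the libraries. Of these, 7 reached at least 50 CPM in WT members: the kinase gene Mark1 at 67.6 CPM, the homeobox gene Hoxc8 at 62.5 CPM, Il15ra, the interleukin 15 receptor, at 55.4 CPM, the sortilin family gene Sorcs2 at 55.4 CPM, Fam20a at 53.3 CPM, Lifr, the receptor of leukemia inhibitory factor, at 51.4 CPM and 5330426P16Rik at 50.1 CPM. They stood out because a signal appeared in data that the comparisons did not use. A gene missing from the knockout table was taken to have stayed under 4 UMIs in every knockout barcode, and the knockout held 84 members against 726 in WT.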

How the results depend on the processing

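No paired analysis was possible because each genotype had 1 library. Named genes kept their direction between libraries in 542 of 573 alternative values and against other fibroblasts in 220 of 220, and list medians in 331 of 375. The 20 genes against other fibroblasts, and most of the 39 between libraries, were named for the largest ratios in these same cells. The tallies of named genes are fixed in part by that choice and do not describe a typical gene. The WT share of kept cells was 10.8% with at most 5% mitochondrial UMIs and 7.97% with no Krt8 or Krt18 UMI, and the knockout share was 0.784% with a collagen sum of at least 100, 0.685% with no Krt8 or Krt18 UMI and 0.834% with collagen I alone. Members were 51.5% of knockout fibroblasts with at least 200 genes per cell. Without a filter on low genes, 1185 genes were higher and 825 lower in WT members than in other fibroblasts, and 459 and 696 in knockout than WT members. Between libraries, 235 were higher and 500 lower in thinned cells, 197 higher with TMM, 182 higher relative to other fibroblasts, and 187 higher and 118 lower relative to keratin positive cells. Relative to other fibroblasts (32 knockout cells), log2 ratios turned to -0.44 for Lgals7, -0.25 for Aqp1, -0.045 for Ank, -0.85 for Trps1, -1.09 for Thbs4 and 0.52 for the IGF binding protein median. Relative to keratin positive cells they turned to 2.05 for Pi16, 2.24 for Apod, 0.94 for Serpina3n, 0.80 for Tnxb, 0.20 for C3, 1.49 for Adamts15, 2.83 for C4b, 0.75 for Il6 and 2.37 for Col14a1, and the medians to 0.46 for matricellular, 0.44 for IGF binding and 0.30 for Wnt genes. Between members without adventitial UMIs they turned to 0.49 for Cxcl12, 0.69 for the IGF binding median and 0.078 for the inflammatory median. Ratios relative to another class subtract that class's own log2 ratio between libraries. Where a gene is low in that class, they move with its few UMIs there and do not describe members alone. The 32 other fibroblasts of the knockout were not limited to cells with collagen I. The causes were not tested. The knockout's 84 members limit its low levels.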
